A study of Drosophila melanogaster with 2 samples.

Results

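Weaker peaks at single promoters are the binding regions of Rfx that lay at the start of a protein-coding gene, outside divergent gene pairs, and carried a signal under 500. Whole embryos of Drosophila melanogaster, 0 to 24 h old, were analysed by chromatin immunoprecipitation sequencing in 2 biological replicates that form a single group. The flies were of the strain Rfx-GFP, which carries an insertion targeting Rfx and expresses an Rfx-eGFP fusion; the labels do not say whether a native Rfx was also present. Chromatin fragments, sonicated to 200 to 800 bp, were recovered with an anti-GFP antibody, while the antibody field of the labels reads Rfx. The control library was not analysed here, and no condition was contrasted.

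The members were chosen by their signal, the authors' enrichment value per peak in the set of peaks called from both replicates. A peak was kept when its signal was under 500 and its summit lay within 500 bp of a protein-coding transcription start. It was left out when the summit lay within 500 bp of both starts of a divergent pair, 2 protein-coding genes transcribed away from each other. This gave 2900 members among the 9247 peaks on the chromosome arms, or 31.4% (95% Wilson interval 30.4 to 32.3). The same starts outside divergent pairs held 260 strong peaks, with a signal of 500 or more. A further 1108 weaker peaks lay at divergent pairs and 4558 lay over 500 bp from any protein-coding start. Signal, score, width and support in each replicate follow from the rule or from the same reads, so they are described without a test; sequence and the position of the summit relative to the start were tested. In whole embryos, a site bound in few cells and a site bound weakly in many cannot be told apart.

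Rfx belongs to the RFX family of transcription factors, which bind a palindromic element called the X-box and are known for switching on genes for building cilia. In the fly, cilia on embryonic sensory neurons depend on it. Promoters of broadly expressed fly genes often hold other elements, among them the DRE, bound by DREF, and Motif 1, bound by M1BP. Boundary proteins such as BEAF-32 and CTCF and the GAGA factor also bind many promoters, and the TATA box positions the start of transcription at a subset of genes.

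The following sequences show the elements in the strongest members that hold them outside annotated exons. Each is read 5′ to 3′ on the strand of the gene from the RefSeq release 6 reference, which is the dm6 build, and the capitals mark the match to the element named before it.
Fam92, X-box, chr2L:12424816-12424889, plus strand: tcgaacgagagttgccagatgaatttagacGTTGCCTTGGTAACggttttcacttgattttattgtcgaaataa
dre4, X-box, chr3L:1876350-1876422, minus strand: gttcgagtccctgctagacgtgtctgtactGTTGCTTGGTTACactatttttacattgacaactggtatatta
CG7006, DRE, chr3R:24850555-24850622, plus strand: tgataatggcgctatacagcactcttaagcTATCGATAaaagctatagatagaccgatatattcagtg
RpS12, DRE, chr3L:13023281-13023348, plus strand: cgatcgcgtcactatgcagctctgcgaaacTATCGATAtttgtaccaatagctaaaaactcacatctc
RpL27, Motif 1, chr3R:25685130-25685198, minus strand: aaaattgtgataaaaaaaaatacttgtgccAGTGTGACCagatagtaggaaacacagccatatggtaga
beta-PheRS, Motif 1, chr3R:24252695-24252763, minus strand: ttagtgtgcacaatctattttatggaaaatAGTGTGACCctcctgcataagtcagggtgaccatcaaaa
Hexo2, GAGA, chrX:8709487-8709553, plus strand: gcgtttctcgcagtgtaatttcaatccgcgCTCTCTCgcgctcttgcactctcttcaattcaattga
Prps, GAGA, chr3L:9696734-9696800, minus strand: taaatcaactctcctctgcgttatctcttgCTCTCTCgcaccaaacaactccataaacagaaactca
Mkp3, TATA, chr3L:19086846-19086911, minus strand: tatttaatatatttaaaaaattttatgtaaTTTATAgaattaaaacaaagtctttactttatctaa
Rap1, TATA, chr3L:1862303-1862368, minus strand: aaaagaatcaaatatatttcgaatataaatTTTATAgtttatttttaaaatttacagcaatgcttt

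Fam92, a gene of the ciliary basal body and transition zone, held the strongest member with an X-box, whose centre lay at -51.5 bp from the start, negative distances being upstream. The peak (FBgn0032428; chr2L:12424644-12424877) had a signal of 429 in the set from both replicates. Its signal was 179 in the ranked list of replicate 1 and 258 in that of replicate 2. The member at dre4 (FBgn0002183), which encodes a subunit of the FACT histone chaperone, had a signal of 321, with 156 in replicate 1 and 174 in replicate 2. Each list has its own scale, so the values of different lists are not comparable in size. At CG7006 (FBgn0039233) and at the ribosomal protein gene RpS12 (FBgn0286213) the centre of the DRE lay at -38.5 and -37.5 bp from the start. The Motif 1 sites lay at -113 bp from the start of RpL27 (FBgn0039359), another ribosomal protein gene, and at -50 bp from that of beta-PheRS (FBgn0039175), which encodes a subunit of phenylalanyl-tRNA synthetase.

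The members covered 2500 protein-coding genes, which is 17.9% of the 13968 on the arms and is the background for every gene list below. Of the 2900 members, 2815 had the start of 1 gene within 500 bp and 85 had those of more than 1, in arrangements other than a divergent pair. Most of the genes, 2109, had 1 member, and 391 had 2 or more. Of the 2500 genes, 81 (3.24%) also had a strong peak of any class and 194 (7.76%) also had a peak at a divergent pair, against 4.38% and 17.5% of all protein-coding genes. The rule leaves out summits at divergent pairs, so it bears on these shares and they are given without a test. Genes with a member made up 21.4% of those on X (95% Wilson interval 19.7 to 23.1) and between 16.1% (2L) and 18.8% (3L) of those on the 4 large autosomal arms. Chromosome 4 held 2 members, at 2.50% of its 80 genes, and Y held 0 at 23 genes.

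Signals of the members ranged from 2.05 to 499.5, with a median of 117 and quartiles of 83.3 and 190. The members just under the limit were at CG7006 (499.5), Mkp3 (498), CG1354 (496), RpS15Aa (496) and Myd88 (495). Mkp3 encodes a phosphatase of MAP kinase and Myd88 an adaptor of Toll signalling. The strong peaks just over it were at CG5096 (501), zf30C (502), CG30411 (505), dnc (505) and Msr-110 (506). No gap in signal separates the members from the strong peaks. The lowest members were at sl (2.47), Lmpt (2.46), CG17717 (2.42), rdgB (2.15) and tup (2.05).

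Very low signals were found beside a stronger peak. Of the 71 members with a signal under 20, 70 overlapped another peak of the set and all 71 were lower than the peak with the next summit, which lay 199 to 261 bp away. That neighbour had a median signal of 98.9. The deposited score, which is highest for peaks that rank reproducibly, was at its maximum of 1000 in 53 of the 71. At rdgB, for example, the member had a signal of 2.15 and a score of 1000, and the summit 200 bp away belonged to a peak with a signal of 293. Over all members, 247 overlapped another peak and had a median signal of 69.4, against 121 for the 2653 that did not.

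Widths separated weaker from strong peaks. Of the members, 2181 (75.2%) were exactly 344 bp wide, most often with the summit 172 bp from the first base, whereas 1 of the 260 strong peaks had that width. With the members ordered by signal in 5 groups of 580, the weakest group had it in 99.1% of peaks and the strongest in 7.07%. Whether the fixed width moves the summit was not tested, and results on position are also given for the narrower peaks alone.

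Most members were not called in both replicates. In its own thresholded set, replicate 1 held 1689 members (58.2%) and replicate 2 held 2013 (69.4%). Both sets held 1293 (44.6%), replicate 1 alone held 396 (13.7%), replicate 2 alone held 720 (24.8%) and 491 (16.9%) were in neither. Of the strong peaks, 98.8% were in both sets. In the longer ranked lists, 89.6% of the members had a peak over the summit in replicate 1, with a median signal of 65.0, and 96.3% had one in replicate 2, with a median of 61.4. Support followed the signal closely: in the strongest of the 5 groups 95.5% of members were called in replicate 1 and 98.4% in replicate 2, and in the weakest 13.1% and 31.4%.

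**Figure D1:**
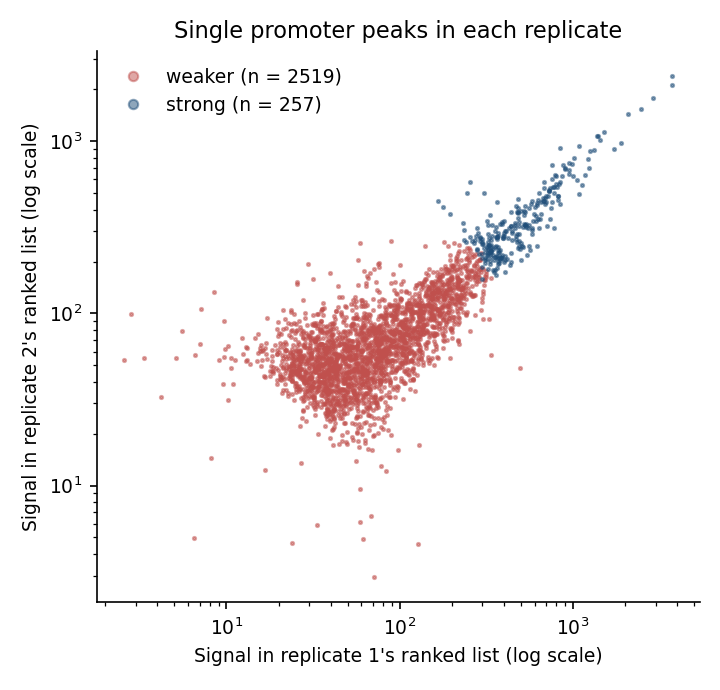
Signal of each single promoter peak in the ranked list of replicate 1 (horizontal, log scale) and replicate 2 (vertical, log scale), with 1 point per peak that has a value in both lists. Strong peaks fall along a narrow band at the upper right, and the members spread widely around medians of 65.0 and 61.4.

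Some members stood far apart in the 2 replicates. At spg, the peak (signal 112) had 2.82 in the ranked list of replicate 1, below nearly all peaks of the set, and 99.1 in that of replicate 2, at percentile 75.4 of the set, although its summit lay inside a peak of the thresholded set of both replicates. The peak at sima (signal 67.7) had 2.58 in replicate 1 and 53.5 in replicate 2, and sima encodes the fly hypoxia-inducible factor. In the other direction, CG14223 had 71.1 in replicate 1 and 2.93 in replicate 2, and the member at Acsl (signal 69.2) had 61.3 and 4.87. These members were named because they are the extremes of the range.

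Summits of the members lay closer to the start than those of strong peaks, and more often past it. A summit within 100 bp of the nearest start was found in 1544 members (53.2%, 95% Wilson interval 51.4 to 55.1) and 62 strong peaks (23.8%, 19.1 to 29.4), which differed in Fisher's exact test (two-sided, adjusted exact p = 9.10e-20 over 3 position tests). The median summit lay at -57 bp from the start in members and at -152 bp in strong peaks. Summits upstream of the start made up 2064 members (71.2%, 69.5 to 72.8) and 232 strong peaks (89.2%, 84.9 to 92.4; adjusted exact p = 2.86e-11). A start of a non-coding gene within 500 bp was found at 5.48% of members and 5% of strong peaks, with an adjusted exact p of 0.886 and a difference of 0.483 points.

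Peaks are not replicates, so these p-values describe the peaks of this set and not the embryos. Among peaks narrower than 344 bp, 46.9% of members and 26.5% of strong peaks lay within 100 bp of the start (adjusted exact p = 4.41e-07), while 86.1% and 88.2% lay upstream (adjusted exact p = 0.486), so the difference in upstream share did not pass the test there. In the own set of replicate 1 alone the upstream difference, members minus strong peaks, was -6.66 points (83.2% of weaker and 89.8% of strong peaks, adjusted exact p = 0.0423). It was -17.1 points in that of replicate 2 alone and -18.1 points in the set from both. Here and below, the limit between weaker and strong was a signal of 372 in replicate 1 alone and 238 in replicate 2 alone.

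**Figure D2:**
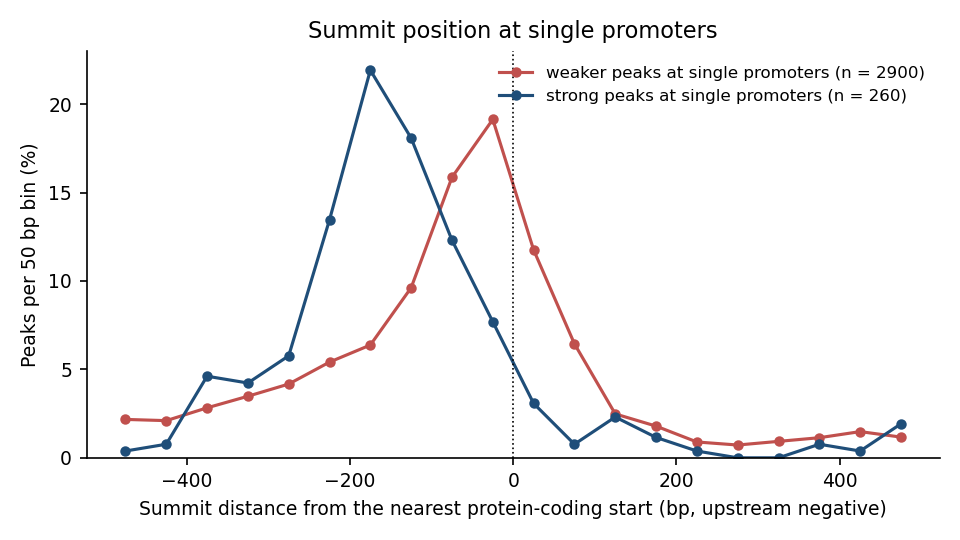
Share of peaks per 50 bp bin by distance of the summit from the nearest protein-coding start, for the 2900 members and the 260 strong peaks at single promoters, with upstream distances negative. The members' highest bin, 19.1%, spans -50 to 0 bp, and that of strong peaks, 21.9%, spans -200 to -150 bp.

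The annotation under the summit differed accordingly. Exons held 32.1% of member summits and 15.8% of strong ones, and intergenic DNA held 42.9% and 50.4%, with the others in introns. The 201 bp around the summit had a median G+C content of 41.3% in members (quartiles 35.8 and 48.3), against 35.3% in strong single promoter peaks (31.3 and 41.3). Weaker divergent pairs had 37.8% and weaker peaks away from starts had 38.3%. Among the members themselves, G+C was higher where the signal was lower, with medians of 46.0%, 43.8%, 41.8%, 39.3% and 38.3% from the weakest to the strongest of the 5 groups. In the same order, 51.2%, 66.4%, 71.4%, 79.3% and 87.6% of summits lay upstream of the start.

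**Figure D3:**
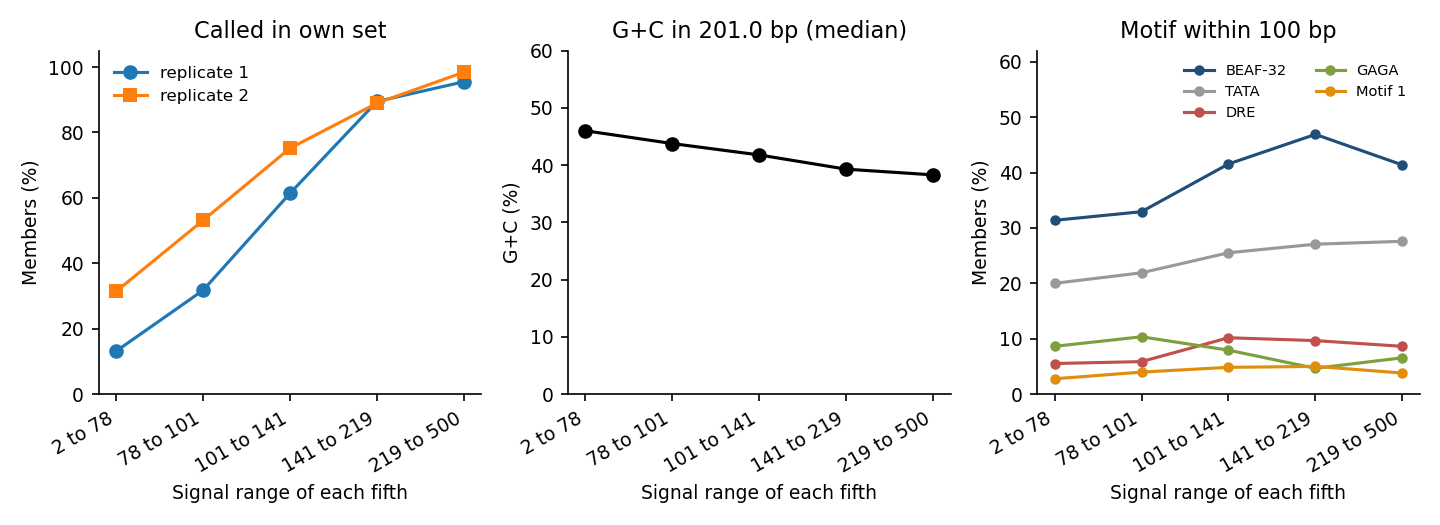
The 5 groups of 580 members, ordered from the lowest to the highest signal on the horizontal axis of each panel. The panels plot the percentage called in each replicate's own set, the median percentage of G+C in 201 bp around the summit, and the percentage of members with each motif within 100 bp; calls rise from 13.1% to 95.5% in replicate 1 while G+C falls from 46.0% to 38.3%.

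Motifs were searched without mismatch on both strands within 100 bp of each summit, and shares were compared by two-sided Fisher's exact tests with Benjamini-Hochberg adjustment over 30 tests, 10 motifs in 3 comparisons. The letters were TATCGATA for the DRE, GGTCACACT for Motif 1, CGATA for the BEAF-32 site, GAGAGAG for the GAGA repeat, TATAAA for the TATA box, CAGCTG for the E-box, AGGNGGCGC for CTCF and CAGGTAG for Zelda. The X-box was searched as a degenerate pair of inverted half-sites with up to 3 bases between them, so a match need not be a perfect palindrome, and as a single arm, GGCAAC. Every DRE contains a BEAF-32 site, so these 2 shares overlap. A match is a run of letters and does not show that a factor was bound. The TATA letters were counted at any position and on either strand, with a median of -117 bp from the start in the members that hold them, so a match is not a TATA box in the place that sets a start. In the sequences printed for Mkp3 and Rap1 they stand on the strand opposite to the gene, at -452.5 and -96.5 bp from the start.

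Against strong single promoter peaks, the members held more Motif 1 and BEAF-32 sites and fewer TATA matches. Motif 1 was found in 118 members (4.07%, 95% Wilson interval 3.41 to 4.85) and 2 strong peaks (0.769%, 0.211 to 2.76; adjusted exact p = 0.00665). BEAF-32 sites were found in 38.8% of members and 29.6% of strong peaks (adjusted exact p = 0.00663), and TATA matches in 24.4% and 38.8% (adjusted exact p = 3.16e-06). The E-box was found in 13.8% of members and 8.85% of strong peaks (adjusted exact p = 0.0496), a call that was lost in replicate 1 alone, with 12.9% and 8.98% (adjusted exact p = 0.256), and in several other settings, and that turned round in the larger motif window, with 18.5% and 18.8%.

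These differences were not the same in every setting, and the part of the summit position in them was not tested. When the window was centred on the start of the gene in place of the summit, TATA matches were found at 18.9% of members and 16.9% of strong peaks (adjusted exact p = 0.608), the opposite direction. Among summits within 100 bp of a start, TATA was at 21.1% and 27.4%, Motif 1 at 6.74% and 3.23% and BEAF-32 at 48.1% and 43.5%, and none of these passed the test with 62 strong peaks left. Strong peaks were richer in A+T around the summit, as given above, and the part of base composition in the TATA and BEAF-32 differences was not tested. With the limit between weaker and strong at a signal of 300, Motif 1 stood at 3.94% and 3.12% (adjusted exact p = 0.551), and BEAF-32 at 38.7% and 34.9% (adjusted exact p = 0.157). In the own set of replicate 1 alone the BEAF-32 difference was 15.1 points, against 9.21 points in the set from both replicates.

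DRE and GAGA shares did not differ past the threshold between weaker and strong single promoters in the set from both replicates, but passed it in some other settings. The DRE was found in 231 members (7.97%, 7.03 to 9.01) and 13 strong peaks (5%, 2.95 to 8.37; adjusted exact p = 0.150). With the window centred on the start, it was found at 8.69% and 4.23% (adjusted exact p = 0.0162). The DRE also passed the test in the authors' conservative set, at 9.10% and 5% (adjusted exact p = 0.0460), and in replicate 2 alone, at 7.87% and 2.90% (adjusted exact p = 0.0101). With replicate 1 by itself it did not pass, and the difference was 3.56 points. GAGA repeats were found in 7.62% of members and 5.38% of strong peaks (adjusted exact p = 0.310). Within 50 bp of the summit they were found in 3.14% and 0.385% (adjusted exact p = 0.0120), while within 150 bp the direction was the opposite, at 11.7% and 15.8% (adjusted exact p = 0.104). The Zelda site, the element of an early embryonic activator, was found in 26 members (0.897%) and 0 of 260 strong peaks, a count that allows a share of up to 1.15% (3 counts of the total; the Wilson limit is 1.46%).

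In the same range of signal, single promoters and divergent pairs differed in 6 of the 10 motifs. GAGA repeats were found in 7.62% of members and 1.53% of weaker divergent pairs, a ratio of 4.97 (adjusted exact p = 2.72e-15). The DRE was found in 7.97% of members and 15.3% of divergent pairs (adjusted exact p = 8.46e-11), Motif 1 in 4.07% and 8.30% (adjusted exact p = 8.66e-07) and BEAF-32 in 38.8% and 55.6% (adjusted exact p = 1.03e-20). TATA matches were at 24.4% and 31.5% (adjusted exact p = 1.75e-05), and E-boxes at 13.8% and 17.5% (adjusted exact p = 0.00663). Divergent pairs thus held more of the elements known from housekeeping promoters, and also more TATA matches and E-boxes. Single promoters held more GAGA repeats. The classes also differed in the median distance of the summit from the nearest start, 90 bp in members and 56 bp at divergent pairs. Their median signals were 117 and 165, and a pair has 2 starts near the summit. The part of these features in the motif differences was not tested.

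The GAGA difference kept its call in each replicate's own set, at 4.79% and 1.31% in replicate 1 alone (adjusted exact p = 1.70e-06) and 8.64% and 1.63% in replicate 2 alone (adjusted exact p = 4.48e-15), although its size was 3.48 points in the first and 7.01 in the second. The Motif 1 difference, members minus divergent pairs, was -4.23 points in the set from both replicates and -2.49 points in replicate 2 alone (adjusted exact p = 0.00776). It did not pass the test among peaks narrower than 344 bp (3.92% and 4.74%, adjusted exact p = 0.678). The TATA difference of -7.08 points was -4.21 points in replicate 1 alone (adjusted exact p = 0.0361). The E-box difference was lost among narrower peaks and reversed with the smaller motif window, at 7.31% and 6.95%. It was -7.51 points in replicate 2 alone, against -3.75 points in the set from both.

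Against weaker peaks away from starts, the DRE and Motif 1 differed most in ratio among the 10 motifs. The DRE was found in 7.97% of members and 0.439% of those peaks (adjusted exact p = 2.97e-71), Motif 1 in 4.07% and 0.241% (adjusted exact p = 1.32e-35) and BEAF-32 in 38.8% and 20.3% (adjusted exact p = 5.39e-66). E-boxes were at 13.8% and 8.01% (adjusted exact p = 1.69e-14), X-box arms at 15.5% and 11.0% (adjusted exact p = 8.66e-08) and GAGA repeats at 7.62% and 4.08% (adjusted exact p = 4.80e-10). TATA matches were lower in members, at 24.4% and 27.9% (adjusted exact p = 0.00237), and with the larger motif window that call was lost, at 34.8% and 35.7%. Replicate 1 alone gave a GAGA difference of 2.00 points and a TATA difference of -5.27 points, against 3.54 and -3.45 points in the set from both.

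The DRE, Motif 1 and BEAF-32 shares of the members lay near those of promoters in general. Windows of the same length centred on all 19275 protein-coding starts held the DRE at 6.44%, Motif 1 at 4.42%, BEAF-32 at 37.1%, GAGA at 4.68% and TATA at 26.9%. Member windows centred on the start held them at 8.69%, 5.59%, 41.7%, 9.62% and 18.9%. Of these 5, GAGA and TATA stood farthest apart in ratio, with GAGA higher and TATA lower in the members. All starts include those of the members and of divergent pairs, so the values are given side by side without a test.

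**Figure D4:**
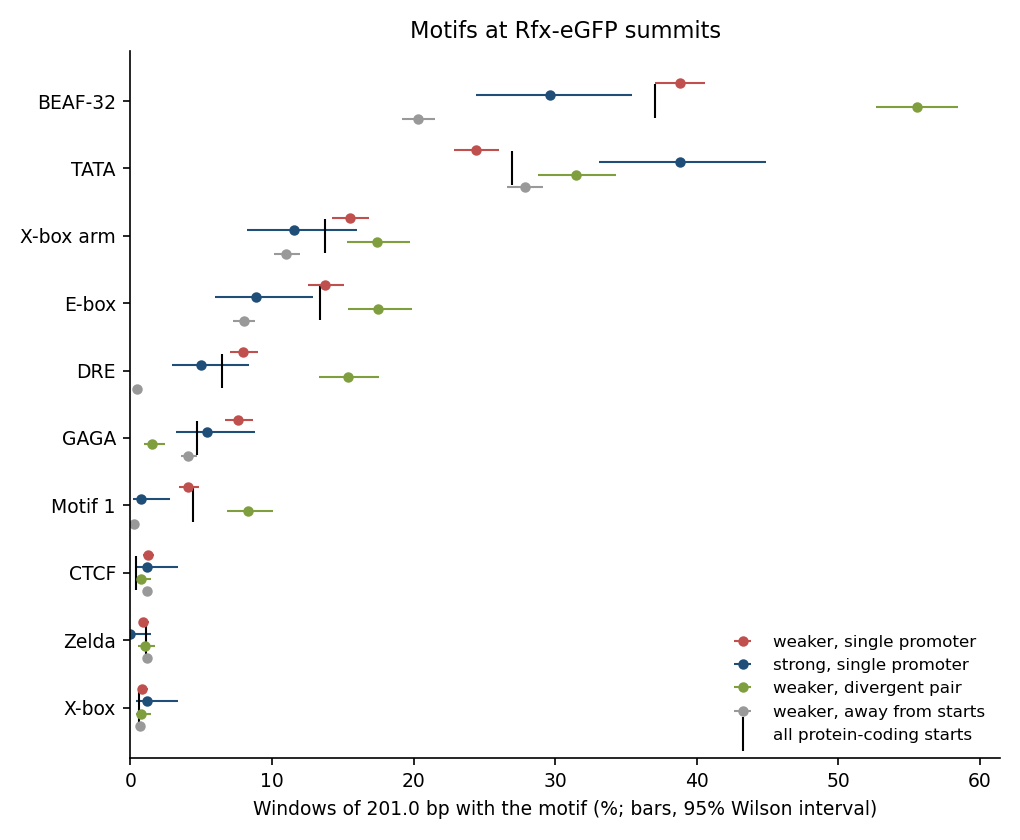
Share of 201 bp windows at the summit with each of 10 motifs (percent, horizontal) in the members, strong single promoter peaks, weaker divergent pairs and weaker peaks away from starts, with 95% Wilson intervals as bars; the black ticks give windows centred on all protein-coding starts. GAGA is highest in the members at 7.62%, though the difference from strong single promoter peaks (5.38%) did not pass the test. The DRE is highest at divergent pairs, at 15.3%.

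The X-box was rare among the members, as in the other classes. The full element was found in 24 members (0.828%, 0.557 to 1.23), 3 strong single promoter peaks (1.15%, 0.393 to 3.34), 0.722% of weaker divergent pairs and 0.680% of weaker peaks away from starts, and in 0.586% of windows at all starts. Adjusted exact p-values were 0.565 against strong peaks, 0.883 against divergent pairs and 0.565 against peaks away from starts. In replicate 1 alone the difference from peaks away from starts passed the test, at 0.842% and 0.170% (adjusted exact p = 0.00241), while in replicate 2 alone it had the opposite direction, at 0.737% and 0.941% (adjusted exact p = 0.555). With 24 members and 3 strong peaks a difference of this size between these 2 classes was not detectable. Fam92 (signal 429) was followed by Fmo-2 (355), a flavin monooxygenase gene, and dre4 (321). Lower signals were found at Dph1 (294), nod (209), a kinesin-like gene, and lost (198). CG15701 (268) and CG31729 (181) complete the 8 strongest. The peak at Dph1 had 161 in replicate 2 and no peak over its summit in the ranked list of replicate 1.

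The elements kept different places within the member windows. The centre of the DRE lay at a median of -40.5 bp from the start and within 50 bp of the summit in 67.1% of the 231 members that hold it. Motif 1 lay at a median of -12 bp from the start, with quartiles of -56 and 9 bp. GAGA repeats lay farther out, at a median of -81 bp from the start, and were upstream of it in 80.1% of 221 members. The median distance of GAGA repeats from the summit was 56 bp, against 33.5 bp for the DRE and 31 bp for BEAF-32 sites. It was 49.5 bp for the X-box in 24 members and 48.5 bp for TATA matches. Of the 2900 members, 19 held both the DRE and Motif 1.

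Motif content also differed with support in the replicates, groups that were chosen after seeing the values and are given without a test. GAGA repeats were found in 13.2% of the members called in replicate 2 alone (10.9 to 15.9), 3.28% of those in replicate 1 alone (1.93 to 5.53), 5.57% of those in both and 8.35% of those in neither. Median G+C was 45.8%, 37.3%, 38.8% and 45.8% in the same 4 groups, and the share of summits upstream was 57.6%, 80.8%, 81.6% and 55.8%. Summits within 100 bp of the start made up 65.8%, 41.9%, 51.4% and 48.9%, an order that differs from that of the upstream shares. The DRE was found in 5.56%, 6.57%, 11.1% and 4.48%. Over all members called in each replicate, the GAGA share averaged 6.66% ± 2.31 (SD, n = 2 replicates) and the DRE share 9.55% ± 0.647. The 2 sets have 1293 members in common, so each SD is not a spread between independent sets.

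The shares of cilium genes with a member are read against the 17.9% of all genes. Members lay at 6 of 20 intraflagellar transport genes (30%, 95% Wilson interval 14.5 to 51.9), 3 of 9 BBSome and ciliary GTPase genes (33.3%, 12.1 to 64.6) and 3 of 10 transition zone and basal body genes (30%, 10.8 to 60.3). Axonemal dynein and assembly genes had 3 of 20 (15%) and mechanosensory genes 1 of 9 (11.1%). Every one of these intervals includes the share of all genes. With peaks of any class counted, the shares were 55%, 55.6%, 60%, 35% and 11.1% in the same order, against 35.4% of all genes. These shares were not tested. Median signals of these lists lay between 87.6 and 108, against 128 over all 2500 genes with a member, where each gene counts with its strongest member.

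Named cilium members mostly lay under the members' median signal of 117, and some ranked differently in the replicates, by percentile among the peaks of the set. Among transport genes, Kap3 and Klp64D, which encode subunits of the kinesin-II motor, had signals of 156 and 135. Kap3 (FBgn0028421; chrX:11338239-11338582) had 103 in replicate 1 (percentile 65.9) and 51.0 in replicate 2 (percentile 38.2). Klp64D (FBgn0004380; chr3L:5359263-5359606) had 78.2 and 66.3, at nearly equal percentiles of 55.0 and 55.9. The IFT-B subunit genes IFT46 and IFT54 had 151 and 81.1. Cc2d2a and Cep290, which encode transition zone proteins, had 106 and 92.0. Cc2d2a had 23.5 in replicate 1 and 78.9 in replicate 2, at percentiles 4.68 and 65.5. Cep290 had 21.8 and 68.0, at percentiles 3.67 and 57.3, and neither was in the thresholded set of replicate 1. The BBSome gene BBS4 (63.6) had 9.05 in replicate 1 and 53.7 in replicate 2, at percentiles 0.588 and 41.8. The member at dnd (signal 110), the fly Arl3 gene, had its summit 625 bp from that of a peak with a signal of 825. The channel gene nompC had 92.7, with 40.3 in replicate 1 and 46.5 in replicate 2, and was in neither thresholded set. Rfx itself was not among the genes with a member.

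Cytosolic ribosomal protein genes and genes of DNA replication and the cell cycle had the highest shares of the 27 lists. Of 93 ribosomal protein genes 35 had one (37.6%, 28.5 to 47.8), with a median signal of 249.8, against 17.9% and a median of 128 over all genes. The strongest were RpS15Aa (496), RpL8 (476), RpS12 (463) and RpL27A (455). RpS15Aa had 275 in replicate 1 and 221 in replicate 2, and RpL8 had 260 and 213. Of the 93, 34 (36.6%) had a peak at a divergent pair and 9 (9.68%) a strong single promoter peak, counts that can overlap, and which stand beside 17.5% and 1.90% of all genes. Replication and cell cycle genes had members at 11 of 29 (37.9%, 22.7 to 56.0), with Dp, the partner of E2F, at 419, the cyclin gene CycE at 247, geminin, a replication licensing inhibitor, at 239 and CycB at 178. Translation factor genes had 15 of 51 (29.4%, 18.7 to 43.0), led by eIF3c (417), eIF5B (394) and eEF5 (378). At eIF3c the values were 326 in replicate 1 and 92.6 in replicate 2.

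Other housekeeping lists were lower, and several had their peaks at divergent pairs. Mitochondrial ribosomal protein genes had members at 7 of 73 (9.59%, 4.72 to 18.5), while 40 of the 73 (54.8%) had a peak at a divergent pair, against 17.5% of all genes. Aminoacyl-tRNA synthetase genes had members at 5 of 35 (14.3%) and a divergent-pair peak at 18 (51.4%), and Mediator genes had members at 3 of 25 (12%) and a divergent-pair peak at 11 (44%). Proteasome genes had 6 of 48 (12.5%), respiratory chain genes 13 of 87 (14.9%), vacuolar ATPase genes 7 of 33 (21.2%) and Rab genes 6 of 33 (18.2%). The strongest vacuolar ATPase members were Vha16-1 (396), Vha13 (349) and Vha68-2 (319). The shares of these lists with a member thus lay near or under that of all genes. With peaks of any class counted, each list lay above the 35.4% of all genes. In the order given, the shares were 65.8%, 65.7%, 56%, 41.7%, 39.1%, 39.4% and 48.5%, and they were not tested. Genes with a divergent-pair peak stay in the total of each list, and shares without them were not computed.

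Lists of chemoreceptor, cuticle and digestive protease genes had few members. Odorant and gustatory receptor genes had 3 of 179 (1.68%, 0.572 to 4.81), cuticle protein genes 1 of 70 (1.43%, 0.253 to 7.66) and trypsin and Jonah protease genes 1 of 28 (3.57%, 0.633 to 17.7). Proneural and sensory precursor genes had 0 of 14 (Wilson interval up to 21.5) and neuron genes 1 of 16 (6.25%, 1.11 to 28.3), and both intervals include the 17.9% of all genes. The receptor members were a single peak shared by Or10a and Gr10a (103) and a peak at Gr21a (79.5).

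Developmental lists held single members of known regulators. Segmentation and Hox genes had 4 of 24 (16.7%), at bcd (340), hb (172), en (106) and hry (87.4), which encode transcription factors of the early embryo. The member at bcd had 149 in replicate 2 and no peak over its summit in the ranked list of replicate 1, and hb had 25.4 in replicate 1 and 152 in replicate 2. Muscle genes had 5 of 15 (33.3%), led by the muscle transcription factor gene Mef2 (164), glial genes 3 of 10 (30%), led by Gli (164), and hemocyte genes 2 of 11 (18.2%), at ush (303) and srp (65.1). Heat shock genes had 6 of 18 (33.3%), led by Hsp22 (325) and Hsp26 (297). RFX and forkhead factor genes had 3 of 14 (21.4%), at CHES-1-like (243), FoxK (167) and foxo (139).

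Genes for several of the factors whose elements were counted above had a member themselves. Insulator and promoter factor genes had members at 6 of 17 (35.3%, 17.3 to 58.7). BEAF-32 (FBgn0015602; chr2R:14770296-14770537) had a signal of 456, with 289 in replicate 1 and 181 in replicate 2. Trl, which encodes the GAGA factor, had 164 with 53.4 and 104, and its peak also lay within 500 bp of the start of CG42507. CTCF had 159, with 109 in replicate 1 and no peak over its summit in replicate 2, and pita had 158. These members were named as the strongest of the 6, so their place above the median signal reflects the choice. The list's interval includes the 17.9% of all genes.

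**Figure D5:**
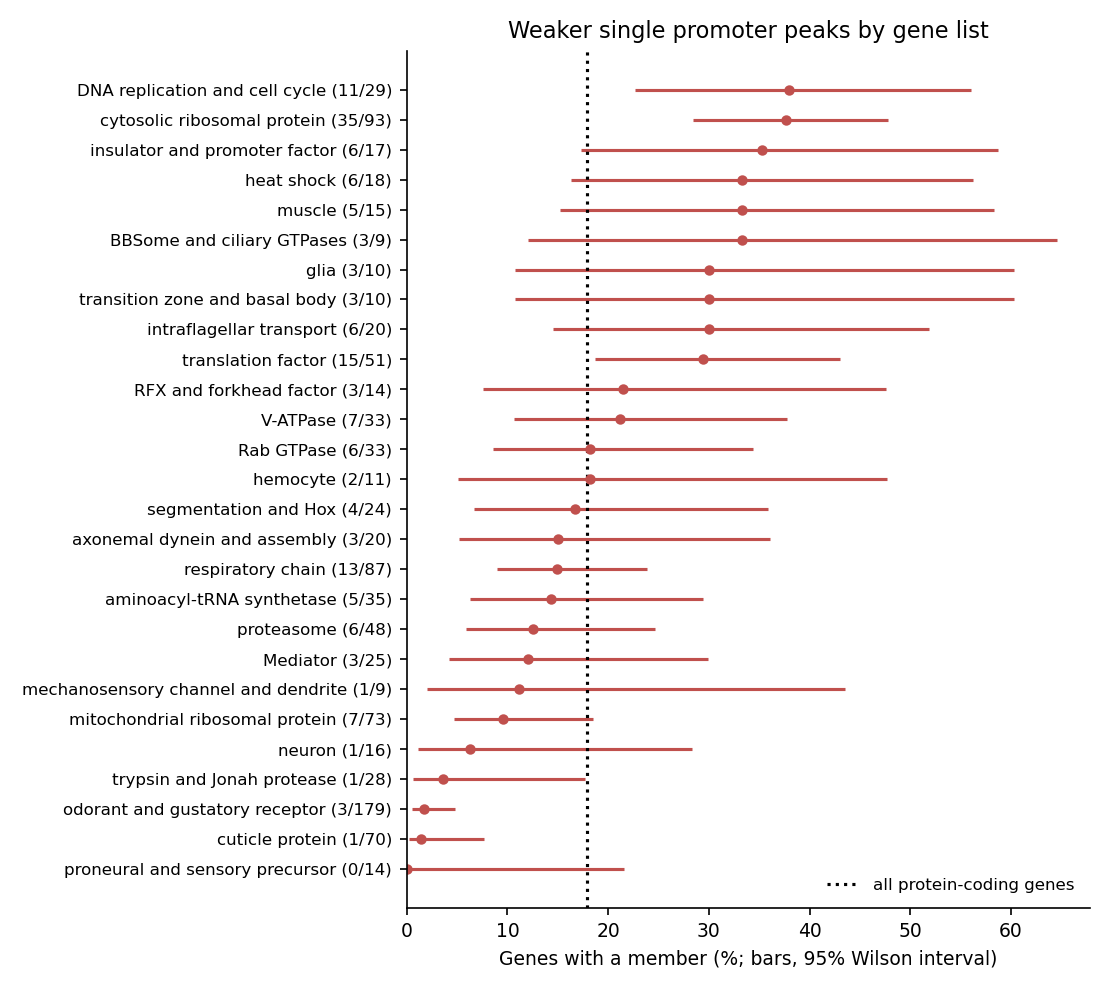
Percentage of the genes of each of 27 lists with a weaker single promoter peak (points, with 95% Wilson intervals as bars and the number of genes in brackets); the dotted line is the 17.9% of all protein-coding genes. Cytosolic ribosomal protein genes stand at 37.6%, and odorant and gustatory receptor genes at 1.68%.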

How the data were processed

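Peaks were read from lists the authors deposited for dm6, thresholded on the irreproducible discovery rate, per the labels; no source used here names the aligner or peak caller. Each deposited peak has a signal, the authors' enrichment value on an unstated scale, a score up to 1000 (at least 830 in the main set) and a summit offset in bp (other). The files hold no read counts, so depth is unknown, and Wilson intervals cover counting error only. A total of 32 columns on compared inputs in the ranked lists were not used.

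Peaks on 7 arms were kept, leaving out 3. Starts were all transcript starts of protein-coding genes in Ensembl release 115 (BDGP 6.54). Motif windows were 201 bp. A member counted as called in a replicate when its summit lay inside a peak of that replicate's thresholded set; a replicate signal is the highest among peaks of its ranked list over the summit, and a percentile is among main-set peaks with such a signal. Fisher's exact tests used a threshold of 0.05. Tests ran in scipy 1.17.1 under Python 3.11.15 (tables: pandas 2.3.3; arrays: numpy 2.4.6; plots: matplotlib 3.10.9), and the steps were tested on simulated data.

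Members, motifs and the 27 gene lists were chosen with earlier results of these data known. Named genes were the 5 members with the highest and the 5 with the lowest signal, and the 5 strong peaks just over the limit. Up to 4 genes per list were named, those with the strongest members. The 8 strongest with an X-box and the 3 that leaned most to each replicate were also named. For sequences, the 2 strongest per motif outside annotated exons and off arm 2R were taken (those for CTCF and Zelda are not printed). Names in the lists that matched no gene were left out.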

Additional observations from a re-analysis of the deposited data

How the results depend on the processing

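Across 456 recomputed values, 379 kept their direction and their side of the threshold, 22 lost the call, 8 gained it, 3 counts moved by more than 1.5 times and 44 changed direction, 39 of these with no call before or after. Values below are percentage points, members minus the other class, and the cause was not tested. The conservative set, each replicate alone, a score of 1000, and other limits, start distances and motif windows were planned; summits within 100 bp of a start, no strong peak within 1 kb, no overlapping peak, peaks narrower than 344 bp and windows centred on the start were chosen after seeing the data. No paired analysis was possible because both replicates form 1 group.

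Against strong single promoters, Motif 1 lost its call at limits of 300 (0.820) and 1000 (3.89), within 100 bp of a start (3.51) and in narrower peaks (2.94), and BEAF-32 at 300 (3.88), at 1000 (11.7) and within 100 bp (4.57). The E-box lost it at 1000 (4.12), at 250 bp (3.85), at a score of 1000 (4.64), in replicate 1 alone (3.91), within 100 bp (0.387), without overlapping peaks (4.85) and in narrower peaks (4.27), and turned to -0.363 with the 150 bp window and -1.34 with start-centred windows. TATA lost it within 100 bp (-6.31) and turned to 1.97 with start-centred windows. The DRE gained a call in the conservative set (4.10), in replicate 2 alone (4.97) and with start-centred windows (4.46), and GAGA (2.75) and the X-box arm (5.46) with the 50 bp window. The share upstream lost it in narrower peaks (-2.10).

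Against divergent pairs, the E-box lost its call at 300 (-2.78), in the conservative set (-2.78), within 100 bp (-3.03) and in narrower peaks (-4.42) and turned to 0.361 with the 50 bp window; Motif 1 lost it in narrower peaks (-0.818); the X-box arm gained one with the 150 bp (-3.53) and start-centred windows (-4.15). Against peaks away from starts, TATA lost it with the 150 bp window (-0.824), CTCF turned to -1.79, with a call, in narrower peaks, and the X-box gained a call in replicate 1 alone (0.672).

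With 1 replicate left out, the number of members was 1900 to 2441, the E-box difference from strong peaks 3.91 to 7.17, that of the DRE 3.56 to 4.97, of the X-box -1.19 to 0.842, of GAGA -0.000945 to 0.915, of CTCF -0.147 to 0.223 and of non-coding starts -0.152 to 0.841. The differences from peaks away from starts were -0.204 to 0.672 for the X-box and -0.576 to -0.146 for CTCF. The count also moved to 1544 within 100 bp and to 714 in narrower peaks. Members in replicate 1 alone had a signal under 372 and those in replicate 2 alone under 238, in place of 500. Depth is unknown and could not be varied.

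The remaining changes of direction involved no call. CTCF turned against strong peaks to -0.0989 at 300, -0.134 at 1000, -0.264 at 250 bp, -0.641 within 100 bp, -0.0275 without a strong peak nearby and -0.210 in narrower peaks; against divergent pairs to -0.0737 at 250 bp; and against peaks away from starts to -0.0627 at 1000, -0.265 in the conservative set, -0.295 at 250 bp and -0.169 within 100 bp. The X-box turned against strong peaks to 0.875 at 1000; against divergent pairs to -0.287 at 250 bp, -0.106 with the 50 bp window, -0.152 within 100 bp and -0.0537 with start-centred windows; and against peaks away from starts to -0.00469 at 250 bp, -0.138 with the 50 bp window and -0.0325 within 100 bp. Zelda turned against divergent pairs to 0.295 at 250 bp, 0.193 with the 150 bp window and 0.000911 without a strong peak nearby, and against strong peaks to -0.218 with start-centred windows. Against strong peaks, GAGA turned to -4.05 with the 150 bp and -2.69 with start-centred windows, the X-box arm to -1.74 within 100 bp and -2.24 with start-centred windows, and the DRE to -0.144 within 100 bp. Non-coding starts turned to -0.518 at 300, -1.25 at 1000, -1.21 at 250 bp and -1.59 within 100 bp.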

Other observations

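The genes with the most members had 5 each, at CG6231, bun, SNF4Agamma and Svil. At bun, which encodes a transcription factor of the TSC22 family, their signals were 389, 154, 147, 86.0 and 60.8, and at SNF4Agamma, the gamma subunit gene of AMP-activated kinase, they were 167, 101, 91.2, 86.1 and 85.9. At Svil, the 5 signals ranged from 6.45 to 129, and at CG6231 from 79.1 to 252.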
